A study of Saccharomyces cerevisiae with 6 samples.

Results

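The genes described are 10 cell cycle regulators of budding yeast, Saccharomyces cerevisiae: the 6 B-type cyclin genes CLB1 (YGR108W), CLB2 (YPR119W), CLB3 (YDL155W), CLB4 (YLR210W), CLB5 (YPR120C) and CLB6 (YGR109C), with SIC1 (YLR079W), CDC20 (YGL116W), CDC5 (YMR001C) and SWI5 (YDR146C). They were chosen by name, as all gene spots on the arrays that carry these names, and all 10 were found among 6256 genes. The arrays compared yeast strains with a mutated TRA1 gene, in which SAGA and NuA4, a pair of histone acetyltransferase complexes, share the altered Tra1 protein, against a strain with wild-type TRA1. The mutant strains were CY1507 with tra1_P3408A, CY1531 with tra1_SRR3413 and CY1514 with tra1_S3463A, alleles named after residues of the PI3K-related domain of Tra1, and the reference strain was CY1524 with TRA1_SB. Every strain, the reference included, had its chromosomal TRA1 disrupted by Tn10LUK and carried a myc-tagged TRA1 or tra1 gene on the plasmid YCplac111, and each allele is represented by 1 named strain. Each of the 3 alleles had 2 two-colour arrays, called biological replicates by the series, the dyes being swapped so that array 1 carried mutant RNA in Cy5 and array 2 carried it in Cy3.

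B-type cyclins bind the kinase Cdc28 and switch it from the start of DNA replication to mitosis. Clb5 and Clb6 act in S phase, Clb3 and Clb4 around spindle formation, and Clb1 and Clb2 in mitosis. Sic1 inhibits these cyclin-kinase complexes, Cdc20 activates the anaphase-promoting complex (APC/C) that marks mitotic proteins for destruction, Cdc5 is the polo kinase, and Swi5 is a transcription factor that turns on SIC1 and other genes at the end of mitosis. Their mRNAs peak at set times of the cycle: CLB5 and CLB6 with the G1/S genes, and CLB1, CLB2, CDC5, CDC20 and SWI5 with the G2/M group called the CLB2 cluster. In a whole culture, a larger share of cells in 1 phase and more mRNA per cell cannot be told apart.

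Values are log2 (mutant / reference) per array, normalized by loess, so that 0 means equal mRNA and 1 means a doubling. "Passed" means an adjusted p at or below 0.05 from limma, with Benjamini-Hochberg adjustment over 6119 tested genes. A mean of an allele is given ± SD over its 2 arrays (n = 2), and an interval is limma's 95% interval. The average weights the 3 alleles equally. Its fit treats the arrays as independent although they share the reference, so its p-values may be too small as well. The reference strain was hybridised on every array, so its own variation between cultures is not estimated apart from that of the mutants.

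The labels of 3 arrays conflict with themselves. For array 1 of tra1_S3463A the source text gives the strain of tra1_SRR3413. For array 2 of tra1_SRR3413 and array 2 of tra1_S3463A, the dye in the source text of 1 channel is not the one in its label. Groups were taken from the titles and dyes from the labels. Both array 2 of tra1_SRR3413 and array 2 of tra1_S3463A lay on slide 3, where the median Cy3 signal was 2760 and 3617, against 1167 to 1434 on the other 4 arrays. The numbers of arrays limit the precision. TRA1 mRNA was above the reference on all 6 arrays (0.73 to 1.93, average 1.23, adjusted p = 0.00316), which does not check the alleles, since an amino acid change leaves the gene transcribed.

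All 10 members gave usable signals. No member spot was saturated or failed to stand well above background in either channel, and 1 spot, of SIC1, was left out as an outlier. On an array, the 2 spots of the 7 members with duplicates differed by a median of 0.031 and at most 0.21, seen for CLB6. CLB3, CLB5 and CDC5 had 1 spot each, so agreement between spots could not be checked for them.

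Of the 10 members, 5 rose in the average of the 3 alleles: CLB1, CLB3, CLB5, CLB6 and CDC5, by 1.50-fold to 1.77-fold. Each of them was above the reference on all 6 arrays. None fell, and CLB2, CLB4, SIC1, CDC20 and SWI5 did not pass. In the same average 43.7% of all tested genes were called, 21.5% higher and 22.2% lower, and 24.2% were above 0 on all 6 arrays. The median over the 10 members was 0.39, beside -0.0046 over all tested genes. The 5 members that rose stood between the 94.3 and 98.4 percentile of the average ratio over all tested genes.

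**Figure D1:**
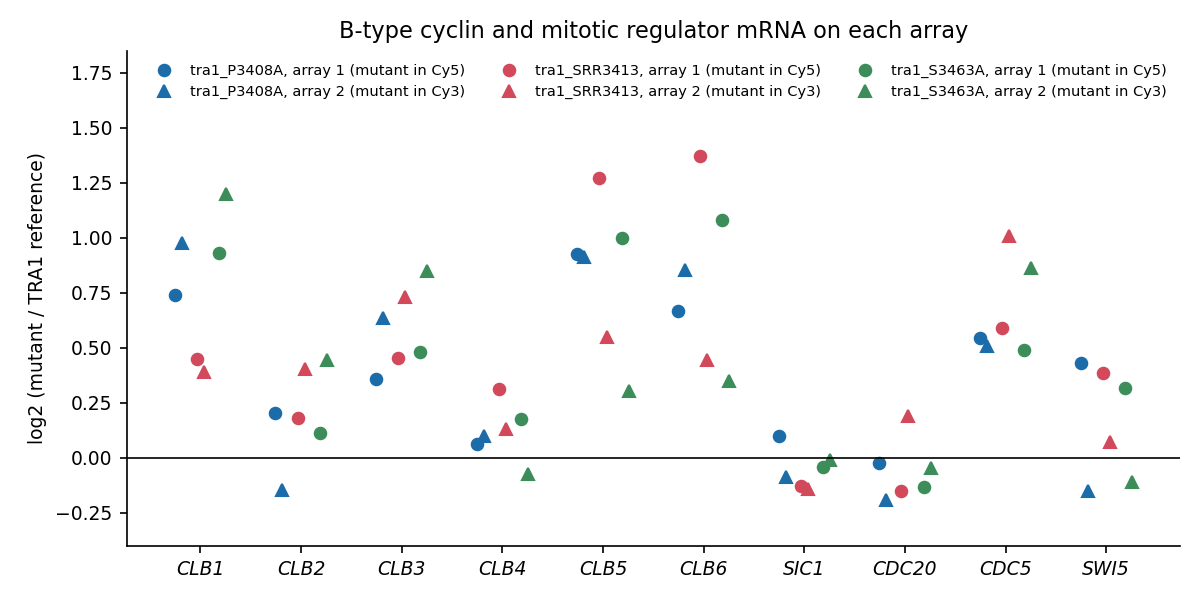
Each point is the log2 (mutant / TRA1 reference) of 1 member on 1 of the 6 arrays, coloured by allele, with circles for array 1 (mutant in Cy5) and triangles for array 2 (mutant in Cy3). CLB1, CLB3, CLB5, CLB6 and CDC5 lie above 0 on all 6 arrays, while SIC1 and CDC20 are above 0 on 1 array each.

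Counted by allele, fewer members passed. In tra1_P3408A 1 of the 10, CLB1, was called higher, where 4.76% of all tested genes were called higher, 7.93% lower and 12.7% in either direction. In tra1_SRR3413 3 of the 10, CLB3, CLB5 and CDC5, were called higher, where 9.33% of all tested genes were called higher, 11.7% lower and 21.1% in either direction. In tra1_S3463A 3 of the 10, CLB1, CLB3 and CDC5, were called higher, where 6.37% of all tested genes were called higher, 8.69% lower and 15.1% in either direction. No member was called lower in any allele. At an unadjusted p under 0.05 the same 5 members, CLB1, CLB3, CLB5, CLB6 and CDC5, were higher in each of the 3 alleles, a level that 28.8%, 36.7% and 32.6% of all tested genes reached in either direction in tra1_P3408A, tra1_SRR3413 and tra1_S3463A. With the array number as a block, which takes out deviations shared by arrays of 1 dye orientation, all 5 passed in every allele. That fit called 36.2%, 49.2% and 43.1% of all tested genes in tra1_P3408A, tra1_SRR3413 and tra1_S3463A, and its p-values may be too small because the alleles share the reference. Leaving out single arrays took the counts to between 0 and 3 in tra1_P3408A and between 0 and 4 in each of the other alleles, while the average gave 5 each time. Without either array of tra1_P3408A, 0 members passed in tra1_P3408A and in tra1_SRR3413 and 1 in tra1_S3463A. In tra1_SRR3413 the count was 1 without its array 1, and in tra1_S3463A it was 1 without its array 1 and 0 without its array 2.

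**Figure D2:**
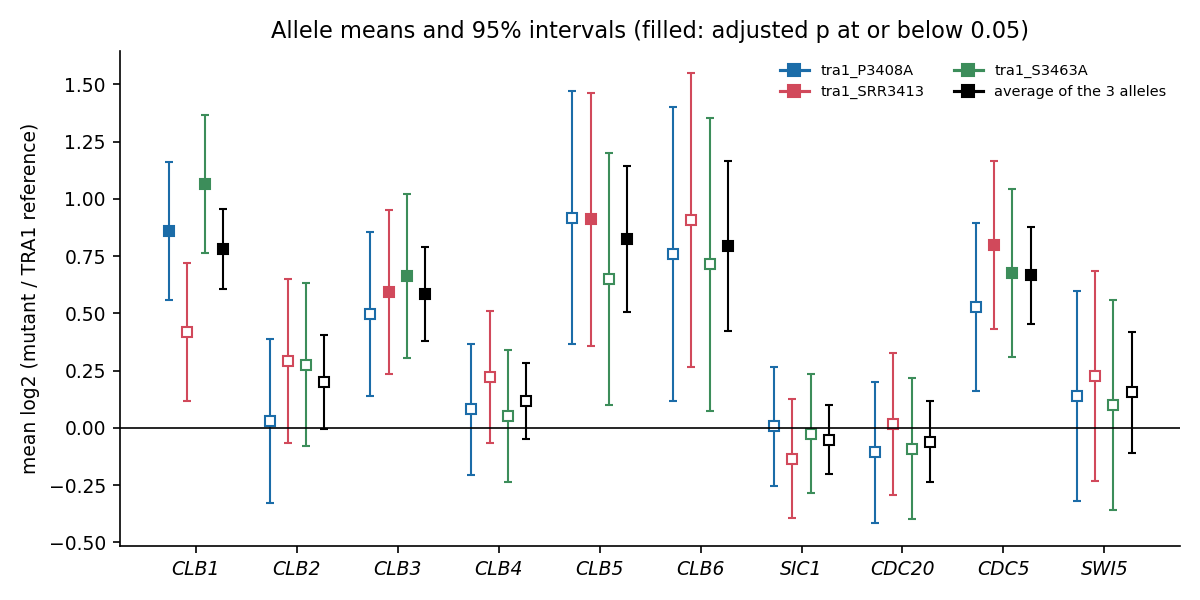
Squares are the mean log2 (mutant / TRA1 reference) of each member in each allele (2 arrays) and in the average of the 3 alleles (6 arrays), with limma's 95% intervals, and filled squares have an adjusted p at or below 0.05. In the average CLB5 (0.83), CLB6 (0.79), CLB1 (0.78), CDC5 (0.67) and CLB3 (0.58) are filled, and the interval of each other member includes 0.

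The S-phase cyclin genes CLB5 and CLB6 rose in the average, by about as much as CLB1. CLB5, the main cyclin for firing replication origins, stood at 0.92 and 0.91 on arrays 1 and 2 of tra1_P3408A, 1.27 and 0.55 on those of tra1_SRR3413, and 1.00 and 0.30 on those of tra1_S3463A. The arrays of tra1_P3408A were thus close together, while in tra1_SRR3413 and tra1_S3463A array 2, on slide 3, was low and array 1 high. Every CLB5 value with the mutant in Cy5 exceeded every value with it in Cy3, though only just in tra1_P3408A. The mean of array 1 exceeded that of array 2 by 0.48. Whether the dye or the slide lies behind this was not tested. The processed signal of CLB5 was between 1915 and 3102 in the mutants and between 1042 and 1580 in the reference, with no overlap. The average rise was 0.83 (1.77-fold, interval 1.42 to 2.21, adjusted p = 0.00406). By allele, CLB5 passed in tra1_SRR3413 (0.91 ± 0.51, adjusted p = 0.0377), narrowly missed in tra1_P3408A (0.92 ± 0.0093, adjusted p = 0.0502) and stood at 0.65 ± 0.49 in tra1_S3463A (adjusted p = 0.107).

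CLB6, which encodes the other S-phase cyclin, had the widest spread of the 10. Its values were 0.67 and 0.85 on arrays 1 and 2 of tra1_P3408A, 1.37 and 0.44 on those of tra1_SRR3413, and 1.08 and 0.35 on those of tra1_S3463A. As for CLB5, the arrays of slide 3 were the lowest of the 6. The CLB6 mean of array 1 exceeded that of array 2 by 0.49, although single values overlapped between the dyes. The processed signal was 325 to 679 in the mutants and 209 to 262 in the reference, so the channels did not overlap. The average rise was 0.79 (1.73-fold, interval 1.34 to 2.24, adjusted p = 0.00797), and no allele alone passed (adjusted p = 0.116 in tra1_P3408A, 0.0570 in tra1_SRR3413 and 0.122 in tra1_S3463A). With the slide as a block, CLB6 stood at 0.48 in tra1_P3408A, 1.06 in tra1_SRR3413 and 0.84 in tra1_S3463A, and passed in all 3 (adjusted p = 0.00786, 0.000417 and 0.00109). The slide block left 1 residual degree of freedom, called 43.8%, 51.1% and 48.7% of all tested genes in these alleles and 71.3% in the average, and is partly confounded with the dye, since slide 1 held only Cy5-labelled and slide 3 only Cy3-labelled mutants. Calls gained under it, here and for CLB4 and CLB2, have that limit.

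Of the cyclins of spindle formation, CLB3 rose and CLB4 did not pass. CLB3 was at 0.36 and 0.64 on arrays 1 and 2 of tra1_P3408A, 0.46 and 0.73 on those of tra1_SRR3413, and 0.48 and 0.85 on those of tra1_S3463A. In every allele the array with the mutant in Cy3 was the higher, and the values of the Cy3 arrays did not overlap those of the Cy5 arrays. The average rise was 0.58 (1.50-fold, interval 1.30 to 1.73, adjusted p = 0.00301), with adjusted p = 0.0795 in tra1_P3408A, 0.0377 in tra1_SRR3413 and 0.0346 in tra1_S3463A. CLB4 ranged from -0.07 to 0.31 over the 6 arrays and averaged 0.12 (1.09-fold, interval 0.968 to 1.22, adjusted p = 0.207). Only on array 2 of tra1_S3463A was CLB4 below the reference. With the slide as a block CLB4 passed in the average (adjusted p = 0.0392) and in tra1_SRR3413.

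Of the mitotic cyclins, CLB1 gave the smallest p of the 10 members and CLB2 did not pass. CLB1 was at 0.74 and 0.98 on arrays 1 and 2 of tra1_P3408A, 0.45 and 0.39 on those of tra1_SRR3413, and 0.93 and 1.20 on those of tra1_S3463A. Both arrays of tra1_SRR3413 lay below all 4 others. Its processed signal was 1924 to 3453 in the mutants, against 1363 to 1522 in the reference. CLB1 rose by 0.78 in the average (1.72-fold, interval 1.52 to 1.94, adjusted p = 0.000614). It passed in tra1_S3463A (1.06 ± 0.19, 2.09-fold, adjusted p = 0.00601) and in tra1_P3408A (0.86 ± 0.17, 1.81-fold, adjusted p = 0.0112), and stood at 0.42 ± 0.04 in tra1_SRR3413 (1.34-fold, adjusted p = 0.0598). In tra1_SRR3413 it passed under 4 alternatives: with the array number as a block (adjusted p = 0.0123), with the slide as a block (0.0194), with median centring (0.0338), and with array 1 of tra1_S3463A counted in that allele (0.0170).

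CLB2, which encodes the major mitotic cyclin, was at 0.21 and -0.15 on arrays 1 and 2 of tra1_P3408A, 0.18 and 0.40 on those of tra1_SRR3413, and 0.11 and 0.44 on those of tra1_S3463A. Its processed signal of 745 to 1311 in the mutants overlapped that of 642 to 953 in the reference. Its average was 0.20 (1.15-fold, interval 0.995 to 1.32, adjusted p = 0.105), and the interval reaches from about no change to a rise by its upper bound. With the slide as a block CLB2 passed in the average (adjusted p = 0.00671) and in tra1_S3463A.

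The cyclin genes form 3 pairs of related sequence, and the difference between the log2 ratios of a pair on the same array shows how far its members moved together. CLB5 and CLB6 differed by 0.11 on average in size and by at most 0.26, with CLB5 the higher on 3 of 6 arrays. CLB1 exceeded CLB2 on 5 of 6 arrays, by 0.58 ± 0.41 (SD over the 6 arrays), and array 2 of tra1_SRR3413 had a difference of -0.01. CLB3 exceeded CLB4 on all 6 arrays, by 0.47 ± 0.28. These differences are descriptions with no test, and how specific each probe is between the genes of a pair was not tested. In the R64 assembly CLB1 lies next to CLB6, and CLB2 next to CLB5, with the 3′ ends of each pair facing each other. The neighbours CLB1 and CLB6 both rose in the average, and of CLB2 and CLB5 only CLB5 passed.

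**Figure D3:**
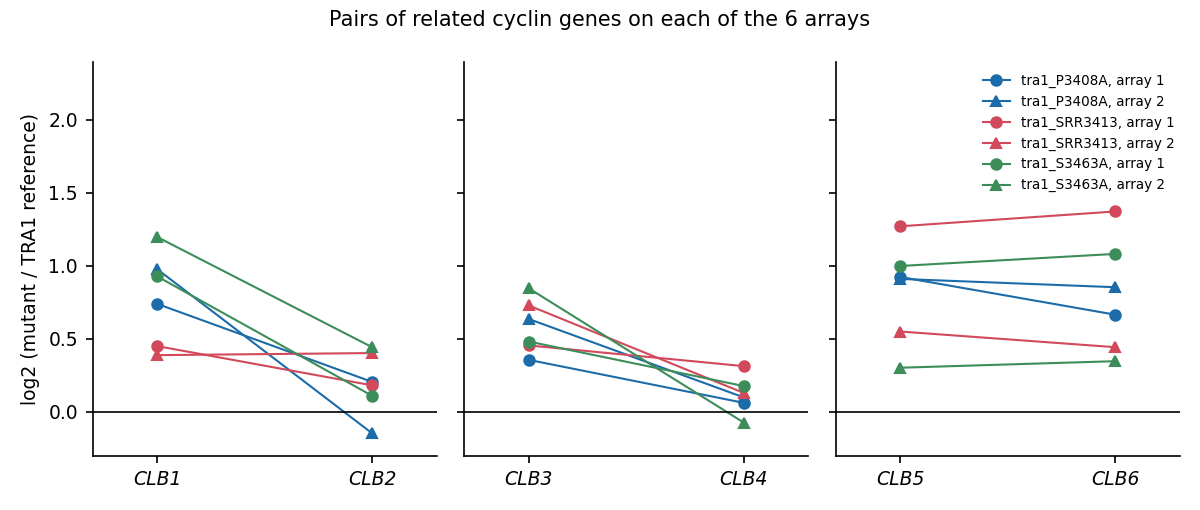
Each line joins the log2 (mutant / TRA1 reference) of 2 related cyclin genes on 1 array, coloured by allele, with circles for array 1 and triangles for array 2. The lines from CLB5 to CLB6 are nearly level, with differences of at most 0.26, while CLB1 is above CLB2 on 5 of 6 arrays and CLB3 above CLB4 on 6 of 6.

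Among the other regulators, CDC5 rose and SIC1, CDC20 and SWI5 did not pass. CDC5 was at 0.55 and 0.51 on arrays 1 and 2 of tra1_P3408A, 0.59 and 1.01 on those of tra1_SRR3413, and 0.49 and 0.86 on those of tra1_S3463A. Its 2 highest values were those of slide 3, the slide on which CLB5 and CLB6 were lowest. The processed signal was 1176 to 2186 in the mutants and 741 to 1087 in the reference. The average rise was 0.67 (1.59-fold, interval 1.37 to 1.84, adjusted p = 0.00203), and CDC5 passed in tra1_SRR3413 (adjusted p = 0.0174) and tra1_S3463A (adjusted p = 0.0355) but not in tra1_P3408A (adjusted p = 0.0723). Without both arrays of slide 3, CDC5 stood at 0.59 in tra1_SRR3413 (adjusted p = 0.0501) and 0.49 in tra1_S3463A (adjusted p = 0.104), each from 1 array. In that fit the spread comes from the 2 arrays of tra1_P3408A alone, and the lone arrays are assumed to vary like them, so a call gained or lost there says little.

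SIC1 had the narrowest spread of the 10, from -0.14 to 0.10 over the 6 arrays, with signals of 1697 to 2304 in the mutants and 1808 to 2276 in the reference. Its average was -0.05 (0.965-fold, interval 0.870 to 1.07, adjusted p = 0.528). CDC20 ranged from -0.19 to 0.19 and averaged -0.06 (0.959-fold, interval 0.848 to 1.09, adjusted p = 0.538). With median centring in place of loess the averages of SIC1 and CDC20 turned to 0.01 and 0.04, also without passing.

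The SWI5 values split by dye orientation, as did those of CLB5 and, in the opposite direction, CLB3. Dye and slide were not tested as causes of this split. The mean of array 1 exceeded that of array 2 by 0.44 for SWI5, a little less than for CLB5 and CLB6. SWI5 was at 0.43, 0.39 and 0.31 on array 1 of tra1_P3408A, tra1_SRR3413 and tra1_S3463A, and at -0.15, 0.07 and -0.11 on array 2 of the same alleles. Every value with the mutant in Cy5 exceeded every value with it in Cy3. The average of 0.16 (1.11-fold, interval 0.928 to 1.34, adjusted p = 0.288) was not past the threshold, but with the array number as a block, which takes out this pattern, it was (adjusted p = 0.0263). That block called many more of all tested genes in every allele, and its share in the average is not given here. The SWI5 call gained under it has that limit. Of the CLB2 cluster members, CLB1 and CDC5 thus rose, and CLB2, CDC20 and SWI5 did not pass, CLB2 and SWI5 with the exceptions under a block given above.

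Differences between the alleles were tested as contrasts of the same fit. With limma no member passed in any of the 3 contrasts, and 0 of 6119 genes (0%) did. At an unadjusted p under 0.05 there were 105 genes for tra1_SRR3413 minus tra1_P3408A, 105 for tra1_SRR3413 minus tra1_S3463A and 6 for tra1_P3408A minus tra1_S3463A. Among the members CLB1 alone was under that unadjusted level. It was lower in tra1_SRR3413 than in tra1_S3463A by -0.64 (interval -1.07 to -0.22, adjusted p = 1.00 from limma) and than in tra1_P3408A by -0.44 (interval -0.87 to -0.01, adjusted p = 0.998 from limma). On slide 1, CLB1 stood at 0.45 in tra1_SRR3413 and 0.74 in tra1_P3408A, and on slide 3 at 0.39 in tra1_SRR3413 and 1.20 in tra1_S3463A. On the array whose source label names tra1_SRR3413 and whose title names tra1_S3463A, CLB1 was at 0.93. The intervals of CLB5 between alleles reached from -0.79 to 1.05, so a difference of about a doubling lies within them.

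The other cell cycle genes are given by lists of textbook groups, without the 10 members, in the average of the 3 alleles, where 21.5% of all tested genes were called higher and 22.2% lower. G1/S genes, the group in which CLB5 and CLB6 peak, rose in 13 of 15 tested members and fell in none, with a median of 0.61 beside -0.0046 over all genes. RNR1, the large subunit of ribonucleotide reductase (1.54, adjusted p = 0.000176), PCL1, a G1 cyclin of the kinase Pho85 (1.55, adjusted p = 0.000451), TOS4, a forkhead-associated regulator (0.85, adjusted p = 0.000792), and CLN1, a G1 cyclin of Cdc28 (1.05, adjusted p = 0.000869), had the smallest p. With array 1 of tra1_S3463A counted in tra1_SRR3413 the count was 11, without POL1 (adjusted p = 0.0545) and SMC3 (adjusted p = 0.0505). In the single alleles 6, 9 and 8 of the 15 rose in tra1_P3408A, tra1_SRR3413 and tra1_S3463A. In these alleles 4.76%, 9.33% and 6.37% of all tested genes were called higher.

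Of the CLB2 cluster beyond the members, 3 of 17 tested genes rose and 2 fell, with a median of -0.01, and neither count stands above the 21.5% and 22.2% of all tested genes. The bud-site gene BUD3 (0.51, adjusted p = 0.00229), the kinase gene FRK1 (0.44, adjusted p = 0.00831) and the bud-site gene BUD8 (0.35, adjusted p = 0.0126) rose. SPO12, a regulator of mitotic exit (-0.23, adjusted p = 0.0208), and ALK1, a haspin-type kinase (-0.49, adjusted p = 0.0343), fell, although neither passed with median centring (adjusted p = 0.0998 and 0.0739) or without slide 3 (-0.23 and -0.26, adjusted p = 0.0690 and 0.0838). ALK1 was named after its values were seen.

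The factors that drive G2/M transcription rose in 6 of 8 tested genes and fell in none, with a median of 0.45, beside 21.5% of all tested genes called higher. The count was 5 with a normexp offset of 0, with array 1 of tra1_S3463A counted in tra1_SRR3413, and without slide 3. HCM1 (0.63, adjusted p = 0.000993) and FKH1 (0.65, adjusted p = 0.00132) encode forkhead factors, NDD1 (0.44, adjusted p = 0.00256) the coactivator of the CLB2 cluster, and YOX1 (0.60, adjusted p = 0.00286) a repressor of the early cell cycle.

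Among genes for the machinery around Cdc28 and the APC/C more rose than fell, where 21.5% of all tested genes were called higher and 22.2% lower. Of 15 tested APC/C genes 7 rose and 1 fell (median 0.16), led by the subunit genes CDC16 (0.57, adjusted p = 0.00104), APC4 (0.57, adjusted p = 0.00171), CDC23 (0.84, adjusted p = 0.00176) and APC2 (0.31, adjusted p = 0.0109). The 1 that fell was the subunit gene DOC1 (-0.33, adjusted p = 0.0119), named after its values were seen. Of 13 tested genes for Cdc28 and its regulators 8 rose and none fell (median 0.30). HSL1, a kinase that relieves the block on mitosis (0.60, adjusted p = 0.00316), FAR1, an inhibitor of Cdc28 with G1 cyclins (0.67, adjusted p = 0.00393), HSL7, the partner of Hsl1 (0.69, adjusted p = 0.00521), and CKS1, a subunit of the kinase (0.35, adjusted p = 0.00569), led them.

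Of 7 tested spindle checkpoint genes 4 rose and none fell (median 0.39), beside 21.5% of all tested genes called higher: BUB1 (0.53, adjusted p = 0.00190), IPL1, the Aurora kinase gene (0.44, adjusted p = 0.00326), BUB3 (0.39, adjusted p = 0.00703) and MAD3 (0.39, adjusted p = 0.0291), which did not pass without slide 3 (0.21, adjusted p = 0.0997). Of the mitotic exit genes 2 of 14 rose and 3 fell (median 0.06), near the 21.5% and 22.2% of all tested genes and so no result about the list. LTE1, an activator of mitotic exit (0.65, adjusted p = 0.00118), and KIN4, a kinase of the spindle position checkpoint (0.40, adjusted p = 0.00967), rose. SPO12, BFA1, part of the brake on mitotic exit (-0.31, adjusted p = 0.0285), and NUD1, a spindle pole scaffold (-0.52, adjusted p = 0.0375), fell, of which SPO12 (adjusted p = 0.0998) and NUD1 (adjusted p = 0.0655) did not pass with median centring. Without slide 3 NUD1 stood at -0.23 (adjusted p = 0.0711). NUD1 was named after its values were seen.

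**Figure D4:**
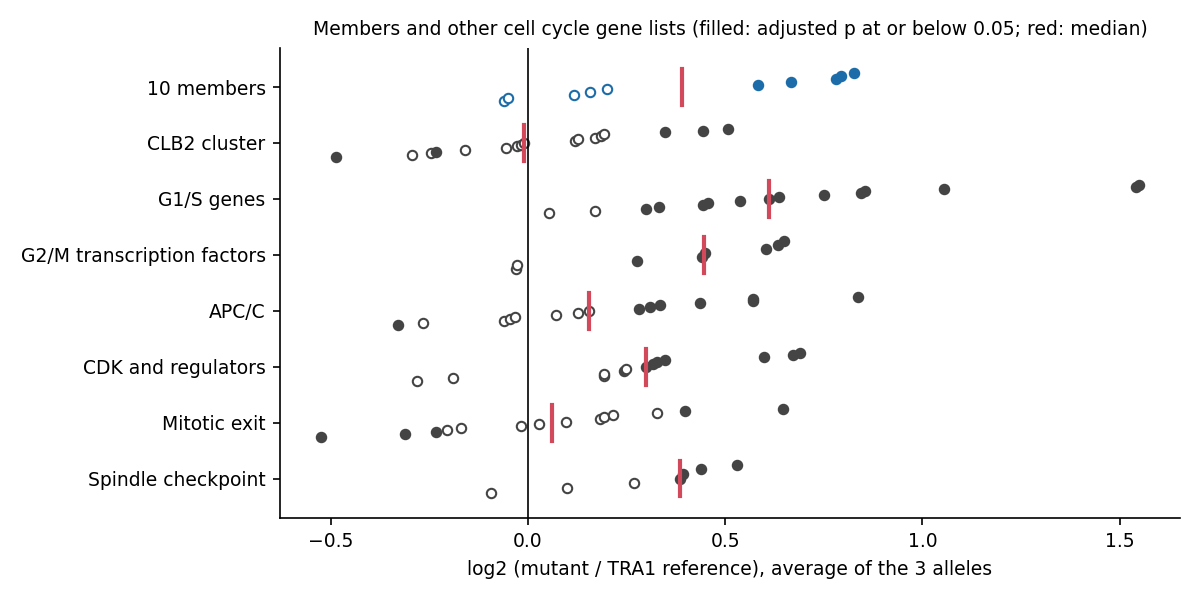
Each point is 1 gene's log2 (mutant / TRA1 reference) in the average of the 3 alleles, for the 10 members (blue) and 7 other cell cycle lists (grey), with filled points at an adjusted p at or below 0.05 and the median in red. G1/S genes have a median of 0.61 and the CLB2 cluster one of -0.01, and the members fall into 5 genes between 0.58 and 0.83 and 5 between -0.06 and 0.20.

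The genes most like a member were taken by the root mean square difference of log2 ratios over the 6 arrays. Nearest to CLB6 were CLB5 (0.130), the G1 cyclin gene CLN2 (0.158) and LOS1 (0.174), a gene of tRNA export. Nearest to CLB2 were CHK1 (0.0755), MRPL22 (0.0828) and MRK1 (0.0832), and nearest to SIC1 were AIM24 (0.0504), DAL80 (0.0542) and TAH11 (0.0561). CLB2 and SIC1 lay near 0, where many genes lie, so a small distance is easily reached there.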

How the data were processed

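The deposited intensity of each spot came from Agilent software (Feature Extraction, version 7.5.1), per the file headers: mean signal and local background are uncorrected, and processed signals are background-subtracted and lowess-normalized between dyes. The deposited log10 ratio is processed Cy5 over Cy3, per the file headers. The deposited series table (log10) equalled the ratio of dye-normalized signals turned to mutant over reference at 100% of comparable gene spots on each array (tolerance 1e-04).

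With limma 3.58.1 in R 4.3.3, mean signals were corrected by normexp (offset 50) and loess-normalized within arrays, control spots at weight 0. The 544 control spots and outlier spots (0.370% to 8.02% per array) were left out, every ratio was set as mutant over reference, and duplicate spots averaged per gene. A gene was kept if 1 channel or both stood well above background on 2 arrays and if no array lacked its value, which left 6119 of 6256 and all 10 members. RefSeq R64 named 5756 genes. The fit (lmFit, eBayes) took all 6 arrays, with 3 residual and 3.08 prior degrees of freedom, and was tested on simulated data. The simulated arrays varied independently of each other, so that test does not cover deviations shared between arrays. Arrays of 1 number share a dye orientation, per the labels. Deviations from allele means correlated at 0.512, 0.467 and 0.930 between alleles over genes, so fits with it as a block are given beside results they change. The slide, per the file headers, was a further block.

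The members and lists were chosen with earlier results of these data known. All members are named. Each list names up to 4 genes by unadjusted p in the average, and the likeness rule takes 3 genes for CLB2, CLB6 and SIC1. The alternatives are in the closing section. No sequences of probes or promoters were used here. The results of 1 gene and of 1 further gene list are not reported here.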

Additional observations from a re-analysis of the deposited data

How the results depend on the processing

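The average of the 3 alleles gave 5 to 7 members called over the settings tried, and CLB1, CLB3, CLB5, CLB6 and CDC5 passed there in all 19 alternatives, including without slide 3, an alternative chosen after seeing the data. A replicate block for the array number let SWI5 pass there too, and a slide block let CLB2 and CLB4 pass. The share of all tested genes called in the average with the array-number block is not given here. Counts within an allele moved. In tra1_P3408A, 1 member passed as reported, 2 with saturated spots left out, and 5 with only its own arrays, with a block for the array number, with one for the slide, and without slide 3. In tra1_SRR3413, 3 passed as reported, 4 with median centring, 5 with the array number as a block and 6 with the slide as a block. In tra1_S3463A, 3 passed as reported, 5 with only its own arrays or with the array number as a block, and 6 with the slide as a block. The share of all tested genes called moved as well: the array-number block called 36.2%, 49.2% and 43.1% and the slide block 43.8%, 51.1% and 48.7% in tra1_P3408A, tra1_SRR3413 and tra1_S3463A, against 12.7%, 21.1% and 15.1% as reported. For the other alternatives the share is not given here, so their counts cannot be set against it. With only its own arrays or without slide 3, the spread in tra1_P3408A comes from its 2 arrays alone. The share in the average under the slide block is given with CLB6. Counting array 1 of tra1_S3463A with tra1_SRR3413 gave 3, 5 and 1 in tra1_P3408A, tra1_SRR3413 and tra1_S3463A, with CLB3 (adjusted p = 0.0511) and CDC5 (adjusted p = 0.0659) lost in tra1_S3463A. Leaving out 1 array at a time gave 0 to 3, 0 to 4 and 0 to 4, and 5 in the average each time. Without either array of tra1_P3408A, 0 members passed in tra1_P3408A and in tra1_SRR3413 and 1 in tra1_S3463A, where fewer arrays inform the spread. No member passed in a contrast between alleles under any of the settings. No called member changed sign. Under the alternatives 19 member values turned sign, all of them uncalled values of CLB2, CLB4, SIC1, CDC20 or SWI5. The cause of the moves was not tested beyond these settings.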

Other observations

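Mating-type genes were measured as a check of the cultures. Of 5 genes of a cells, MFA2 (0.42, adjusted p = 0.0141 with limma) rose and BAR1, a secreted protease (-0.53, adjusted p = 0.0340), fell in the average of the 3 alleles. BAR1 ranged from -1.38 to 0.12 over the 6 arrays, and its fall passed by itself in tra1_SRR3413 (-1.06, adjusted p = 0.0391). Without slide 3 the average of BAR1 was -0.26 (adjusted p = 0.0569). Of 4 genes of alpha cells, MFALPHA1 (0.55, adjusted p = 0.00413) rose, with processed signals of 173 to 249 in the mutants and 95.9 to 170 in the reference. MATALPHA1 (0.13), STE3 (0.21) and MFALPHA2 (0.04) did not pass. The processed signals of the 5 genes of a cells were 1357 to 8166 in the mutants and 3020 to 5504 in the reference. Those of the 4 genes of alpha cells were lower in both, at 101 to 867 in the mutants and 95.9 to 539 in the reference.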
